A study of Sus scrofa with 8 samples.

Results

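The S100A genes encode small calcium-binding proteins, and 10 of them were followed in the olfactory epithelium of newborn pigs: S100A1, S100A2, S100A3, S100A4, S100A5, S100A6, S100A10, S100A11, S100A13 and S100A14. They were taken by name from a table of 25880 pig gene identifiers, and the set had been chosen by its measured expression values in knockout against wild-type piglets, in which S100A3 stood out. A symbol table named 8 of them, and S100A2 and S100A13 were named by their position in the RefSeq annotation. The libraries came from 4 wild-type piglets (5, 9, 12 and 23) and 4 CFTR knock-out piglets (6, 18, 20 and 21), all newborn, from olfactory tissue frozen after dissection. CFTR is the anion channel that is defective in cystic fibrosis, and the study's design text names olfactory loss in cystic fibrosis as its subject. The labels give no strain, knockout allele, litter, sex or batch. Each library is a separate piglet.

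S100 proteins are EF-hand calcium sensors that work mostly as dimers. When calcium in the cell rises, they open a surface that binds target proteins such as annexins, cytoskeletal proteins and enzymes. Most of their genes lie in a tandem cluster beside the genes of the cornified skin barrier, and each gene has its own pattern across tissues. In the nose, S100A5 is known as a gene of olfactory sensory neurons whose level in rodents follows odour-driven activity.

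All 10 genes lay on chromosome 4 (positions as in the deposited table, whose build is not stated). The first 8 spanned 106 kb, from S100A1 on the minus strand (95993938 to 96012402) through S100A13 (96012005 to 96025118), S100A14 (96027639 to 96029878), S100A2 (96073481 to 96076844), S100A3 (96084088 to 96086827), S100A4 (96088028 to 96091249) and S100A5 (96093140 to 96097020) to S100A6 (96098189 to 96100128), these 7 on the plus strand. S100A3, S100A4, S100A5 and S100A6 stood 1.17 to 1.89 kb apart. S100A11 (97233428 to 97241989) and S100A10 (97261199 to 97275019) lay 1133 kb further on, also on the plus strand. S100A1 and S100A13 run on opposite strands and share 45 exonic bases, which is 3.65% of the exonic length of S100A1 and 4.97% of that of S100A13. The span of S100A1 also shares 11390 bases with that of CHTOP on the same strand, with no exonic base in common. The RefSeq span of S100A1 (96007026 to 96012305) overlaps 28.6% of the span counted here. The level of S100A1 may therefore not be that of the RefSeq gene alone. No other overlap of a member with a gene of the table was found. Whether reads were counted by strand is not stated, so the values of S100A1 and S100A13 carry this uncertainty.

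Library totals ranged from 30836904 to 43253395 reads. All 10 genes passed the filter on low counts, and the smallest count of any of them was 89 reads. Values are CPM, read counts divided by a library total that the TMM method of edgeR had adjusted. The targeted gene CFTR averaged 40.3 ± 10.9 CPM in wild types and 6.84 ± 1.36 CPM in knockouts (SD, n = 4 each), and each knockout library lay below each wild-type library (log2 fold change -2.56 ± 0.21, SE, edgeR adjusted p = 0.0121). Leaving out knockout piglet 6 gave an edgeR adjusted p of 0.122, leaving out piglet 20 gave 0.0544, and the 6 libraries free of Y-linked reads gave 0.0668. These p-values measure the spread between piglets. The tissue carried strong markers of mature olfactory neurons, with GFY at 1591 to 3299 CPM and CNGA2, the olfactory transduction channel, at 231 to 512 CPM. OMP was not analysed here.

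Some libraries stood apart from the rest. Knockout piglet 18 carried 7894 CPM of summed bone and cartilage markers against 293 to 853 CPM in the other libraries, and 323 CPM of summed macrophage and dendritic cell markers against 56.1 to 132 CPM. Wild-type piglet 5 had the lowest sum of mature neuron markers (5649 CPM against 7721 to 10211) and the highest sum of respiratory secretory markers (1856 CPM against 570 to 1036). Y-linked reads (EIF1AY or KDM5D) occurred in 2 wild-type libraries, piglets 9 and 12, and in 0 knockout libraries. In bulk tissue, fewer cells of a type and less RNA per cell cannot be told apart.

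S100A5 was the most abundant member per length. Its wild-type level was 332 ± 99.1 CPM per kb of exons (SD, n = 4), above 99.4% of all tested genes by its mean over the 8 libraries. S100A2, a p53-regulated gene of basal epithelial cells, followed at 183 ± 30.3 CPM per kb, and S100A6 or calcyclin, which is common in dividing and stromal cells, at 128 ± 28.8 CPM per kb. S100A1, known from muscle and neurons as a regulator of calcium release channels, was at 51.0 ± 13.2 CPM per kb. These 4 genes kept the same order in each wild-type library. The ranges of S100A2 (159 to 225) and S100A6 (93.9 to 164) overlapped, whereas the ranges of S100A5 (253 to 477) and S100A2, and of S100A6 and S100A1 (37.8 to 68.8), did not.

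The remaining members were lower and less clearly ordered. S100A14, an epithelial member, had 25.2 ± 5.96 CPM per kb in wild-type piglets. S100A13, which helps export the growth factor FGF1, had 17.8 ± 2.50, and S100A11, an annexin A1 partner, had 17.3 ± 5.31. S100A3, a zinc-binding protein best known from the hair cuticle, had 13.8 ± 4.91 CPM per kb. S100A10, the annexin A2 partner that has lost calcium binding, had 10.2 ± 3.05. S100A4, a motility protein of fibroblasts and leukocytes, had 7.36 ± 5.15. Across wild-type piglets the range of each of these genes overlapped that of the next lower one. In knockout piglets the order was the same for the first 7 genes, while S100A3 stood last at 4.33 ± 0.99 CPM per kb.

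**Figure D1:**
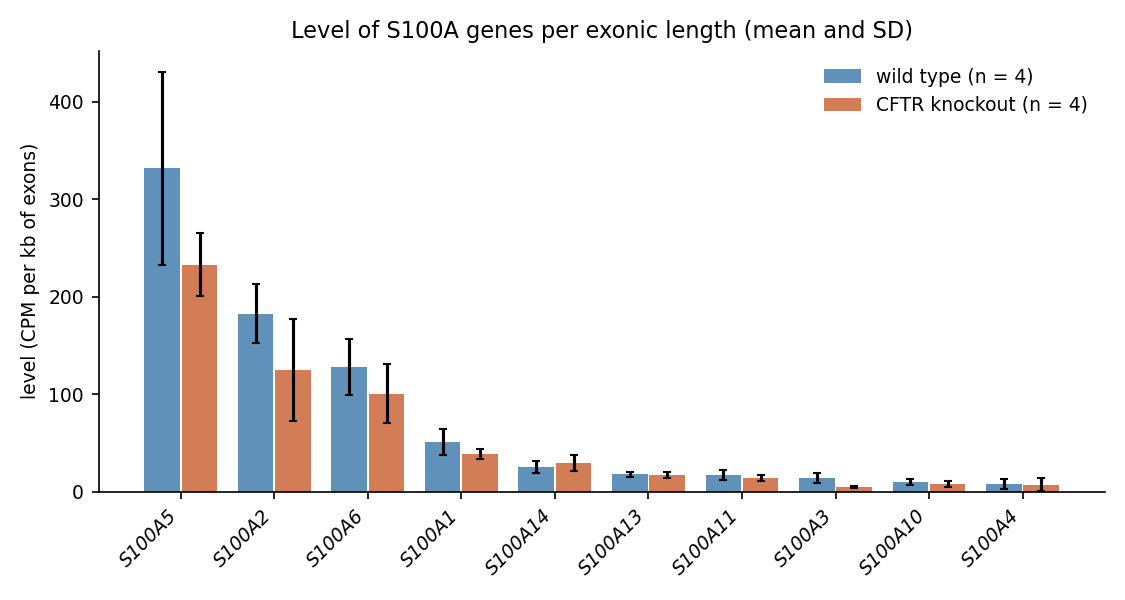
Level of each S100A gene in CPM per kb of exons, as bars for the mean of 4 wild-type and 4 CFTR knock-out piglets with SD. S100A5, S100A2 and S100A6 were the most abundant in both groups, and S100A3, eighth among wild types, had the lowest knockout mean at 4.33.

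Since the 10 genes were chosen by this contrast, their values in it are a description, without a test, and nothing is read from the counts. In edgeR 9 of the 10 had a negative log2 fold change, and 48.4% of all 17175 tested genes did. The median of the 10 was -0.38, against 0.01 for all tested genes. None of the 10 had an adjusted p under 0.05 in edgeR, where 0.00582% of all tested genes did, and 2 of them, S100A3 and S100A5, were lower at an unadjusted p under 0.05 (5.8% of all genes were lower and 11.2% were past it in either direction). DESeq2 called S100A3 among the 10 and 1.31% of all genes, and limma with quality weights called 0 of the 10 and 0.064% of all genes. Leaving out wild-type piglet 5, or knockout piglet 20, left 7 negative values, and leaving out piglets 5 and 18 together left 9.

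**Figure D2:**
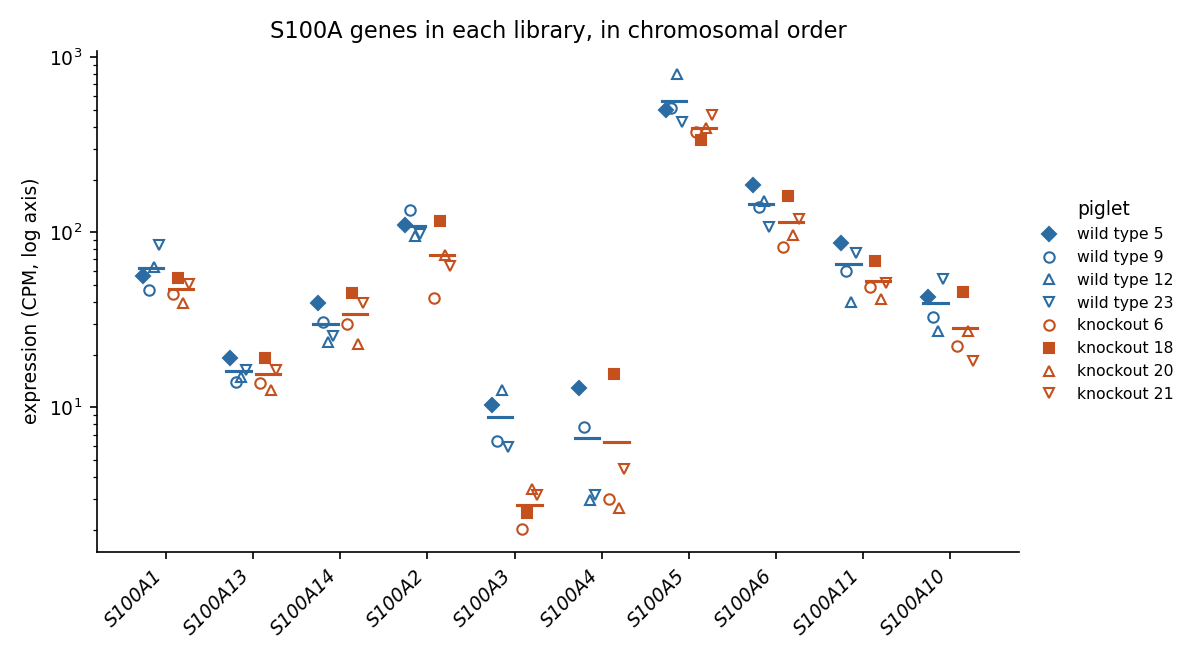
Expression of each S100A gene in CPM on a log axis, 1 symbol for each piglet, with horizontal lines at the group means and filled symbols for wild-type piglet 5 and knockout piglet 18. S100A3 is the gene whose knockout values (2.03 to 3.42) all lie below the wild-type values (5.95 to 12.5).

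S100A3 had the largest difference of the 10 genes. It was 10.3, 6.45, 12.5 and 5.95 CPM in wild-type piglets 5, 9, 12 and 23, and 2.03, 2.48, 3.42 and 3.17 CPM in knockout piglets 6, 18, 20 and 21. The groups did not overlap, which held in this direction for 3.36% of all tested genes and in either direction for 5.81%. Read counts were 204 to 517 in wild-type and 89 to 150 in knockout libraries. The means were 8.81 ± 3.14 and 2.77 ± 0.64 CPM (SD, n = 4 each), so that the knockout level was 31.5% of the wild-type level, with a log2 fold change of -1.67 ± 0.29 (SE). Of all tested genes, 0.169% had a log2 fold change this low or lower. S100A3 stood out in the contrast by which the set was chosen, so nothing is read from that share. The log2 fold change of S100A3 lay between -1.82 and -1.42 in all 17 other fits, and it was -1.55 ± 0.31 among the 6 libraries free of Y-linked reads. Knockout piglet 18, which stood apart in bone markers, lay inside the knockout range here.

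S100A5 was lower in the knockout mean but overlapped between the groups. It was 497, 516, 807 and 428 CPM in wild-type piglets 5, 9, 12 and 23, and 375, 337, 396 and 469 CPM in knockout piglets 6, 18, 20 and 21. Wild-type piglet 12 was far above the rest, and wild-type piglet 23 lay below knockout piglet 21. The means were 562 ± 168 and 394 ± 55.3 CPM (SD, n = 4 each), with a log2 fold change of -0.51 ± 0.20 (SE). It was -0.29 when wild-type piglet 12 was left out, -0.23 with the presence of Y-linked reads as a covariate, and -0.23 ± 0.15 over the 6 libraries lacking them. The 2 highest values, in wild-type piglets 9 and 12, were those of the libraries with Y-linked reads, and the part of sex in the difference was not tested further.

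Markers of mature olfactory neurons had mostly positive values. Of 13 markers tested, 12 had a positive log2 fold change, with a median of 0.35, and 0 were called by edgeR or DESeq2, with 4 higher at an unadjusted p under 0.05. Of all 17175 tested genes, 8867 had a positive value and 928 were higher at that p in edgeR. The markers summed to 5649 CPM in wild-type piglet 5, 7721 to 9749 CPM in the other wild types and 8186 to 10211 CPM in knockouts. The lowest GNAL and CNGA2 values, 434 and 231 CPM, were also those of wild-type piglet 5. GNAL, the olfactory G protein, ranged from 434 to 754 CPM among wild types and from 688 to 904 CPM among knockouts (log2 fold change 0.44 ± 0.18, edgeR adjusted p = 0.422). The log2 fold change of CNGA2 was 0.48 ± 0.17 (edgeR adjusted p = 0.407), and that of GFY was 0.10 ± 0.21 (edgeR adjusted p = 0.863). Set against the summed markers, a ratio chosen after the values were seen, S100A5 gave 8.79, 6.68, 8.28 and 4.96 CPM per 100 CPM of markers in wild-type piglets 5, 9, 12 and 23. In knockout piglets 6, 18, 20 and 21 it gave 3.84, 4.12, 4.404 and 4.59. The highest ratio, in wild-type piglet 5, came with the lowest marker sum. The groups did not overlap in this ratio, which held in this direction for 3.42% of all tested genes on the same scale. Against GNAL alone, S100A5 was 98.0% ± 21.7 in wild-type and 49.8% ± 1.51 in knockout piglets (SD, n = 4 each). Against GFY alone the groups overlapped, at 15.1% to 31.2% and 13.2% to 15.2%.

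By Pearson's r, S100A3 and S100A5 were the closest pair of the 10 genes, and by Spearman's rho S100A14 and S100A4 were. For S100A3 and S100A5, Pearson's r of log2 CPM over the 8 libraries was 0.83 and Spearman's rho was 0.88. As the genes were chosen by the group difference, which enters these values, correlations among them are a description with no p. Without wild-type piglets 5 and 12, the farthest from the median of S100A3, r of this pair was 0.74. For the deviations from the group means it was also 0.74, below that of several other pairs. The highest there was S100A14 and S100A4 at 0.90. S100A3 was 1.57% ± 0.36 of S100A5 in CPM in wild-type and 0.70% ± 0.13 in knockout piglets (SD, n = 4 each). This ratio, also chosen after the values were seen, did not overlap between the groups, at 1.25% to 2.08% and 0.54% to 0.86%. S100A3 alone did not overlap either, so the ratio is no separate result. The share of all tested genes without overlap on this scale was not computed.

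**Figure D3:**
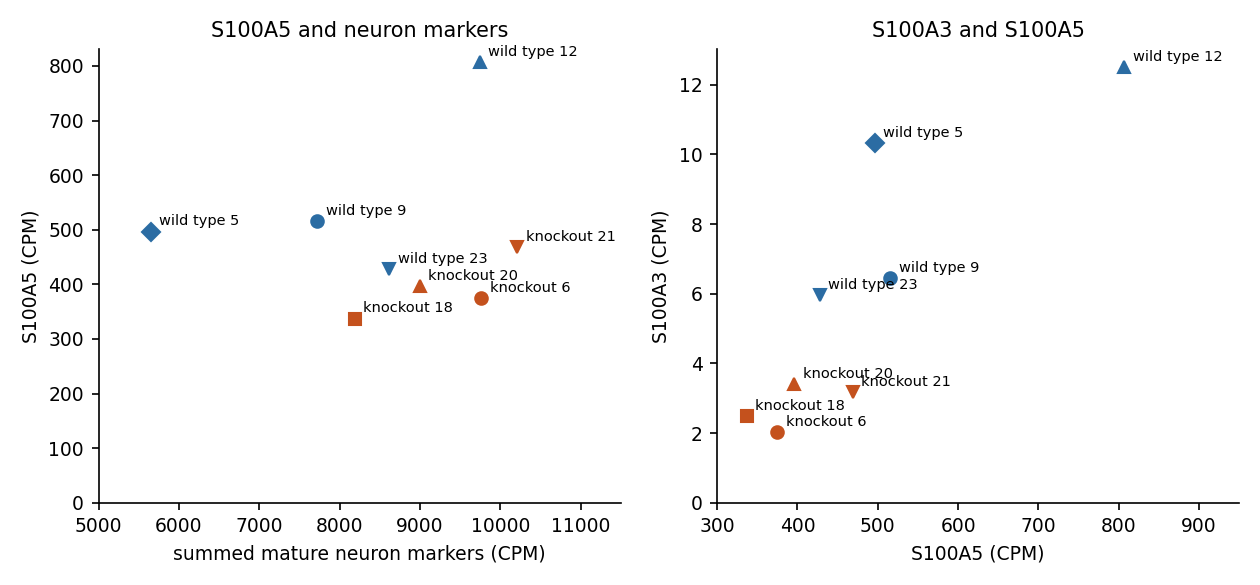
Left, S100A5 in CPM against the summed CPM of 13 mature neuron markers; right, S100A3 against S100A5 in CPM; each point is 1 piglet, blue for wild type and orange for knockout. The knockout points have marker sums of 8186 to 10211 with S100A5 at 337 to 469, and in the right panel they lie below all wild-type points.

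The epithelial members S100A2 and S100A14 differed from each other. S100A2 was 110, 135, 95.1 and 97.7 CPM in wild-type piglets 5, 9, 12 and 23, and 42.0, 117, 74.7 and 64.4 CPM in knockout piglets 6, 18, 20 and 21. Knockout piglets 6, 20 and 21 lay below every wild-type library, and piglet 18 was second only to wild-type piglet 9. The log2 fold change was -0.55 ± 0.27 (SE), -0.86 ± 0.20 without knockout piglet 18 and -0.36 without knockout piglet 6. S100A14 was the 1 gene with a positive value, 0.20 ± 0.23, with 23.7 to 39.5 CPM among wild types and 23.1 to 44.97 CPM among knockouts. The groups overlapped, and the value was 0.04 without knockout piglet 18. Markers of horizontal basal cells, the reserve stem cells of the epithelium, summed to 214 to 335 CPM among wild types and 222 to 289 CPM among knockouts, with 4 of 6 negative and 0 called by edgeR or DESeq2 (0 at an unadjusted p under 0.05). Markers of squamous or cornified epithelium summed to 10.999 to 22.2 and 9.64 to 20.3 CPM, and KRT1 had 0 reads in all libraries. Markers of respiratory secretory cells summed to 570 to 1856 CPM among wild types and 610 to 801 CPM among knockouts. Of 9 tested, 7 had a negative log2 fold change (median -0.44), 0 were called by edgeR or DESeq2, and TFF3, AGR2 and LYPD2 were the 3 lower at an unadjusted p under 0.05. The part of these cell types in the values of S100A2, S100A14 and the other members was not tested.

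S100A1 was 56.4, 46.5, 63.4 and 84.8 CPM in wild-type piglets 5, 9, 12 and 23, and 44.5, 55.0, 39.6 and 50.5 CPM in knockout piglets 6, 18, 20 and 21. Wild-type piglet 23 was highest, and wild-type piglet 9 lay among the knockout values. The log2 fold change was -0.41 ± 0.18 (SE), and -0.23 without wild-type piglet 23. RYR2, a calcium release channel that S100A1 is known to bind, ranged from 20.03 to 31.1 CPM among wild types and from 34.9 to 36.4 CPM among knockouts (log2 fold change 0.43 ± 0.14, edgeR adjusted p = 0.380). Groups without overlap and with the knockout higher made up 2.45% of all tested genes. S100A13, its neighbour on the opposite strand, had 13.95 to 19.2 CPM in wild types and 12.6 to 19.2 CPM in knockouts, with a log2 fold change of -0.06 ± 0.16. It was 0.03 without wild-type piglet 5 and 0.03 without knockout piglet 20.

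The annexin partners S100A10 and S100A11 and the broadly expressed S100A6 were lower in the knockout mean and overlapped between groups. S100A10 had 27.5 to 54.2 CPM in wild types and 18.4 to 45.7 CPM in knockouts (log2 fold change -0.47 ± 0.30, SE). S100A11 was 40.2 to 86.7 and 41.6 to 68.9 CPM (-0.32 ± 0.24). S100A6 was 107 to 187 and 82.4 to 161 CPM (-0.35 ± 0.23). In each of the 3 genes knockout piglet 18 was the highest knockout library, and without it the log2 fold changes were -0.79, -0.48 and -0.56. Leaving out a wild-type piglet moved them the other way. S100A10 was at -0.27 without wild-type piglet 23, and S100A11 and S100A6 were at -0.17 and -0.21 without wild-type piglet 5. S100A10 and S100A11 are neighbours, and their r over the 8 libraries was 0.76, with a rho of 0.69. Without wild-type piglets 5 and 12 r was 0.82.

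S100A4 varied most among piglets. It was 12.8, 7.72, 2.95 and 3.16 CPM in wild-type piglets 5, 9, 12 and 23, and 2.98, 15.4, 2.67 and 4.42 CPM in knockout piglets 6, 18, 20 and 21. Knockout piglet 18 and wild-type piglet 5 were highest, wild-type piglet 9 lay between, and the other 5 libraries were at 2.67 to 4.42 CPM. The coefficient of variation was 69.95% in wild types and 95.5% in knockouts, against 14.03% to 35.7% and 14.02% to 42.5% in the other 9 genes. The log2 fold change was -0.07 ± 0.67 (SE), -0.99 without knockout piglet 18 and 0.46 without wild-type piglet 5. The highest S100A4 value was in the library with the most macrophage markers, where CSF1R was 106 CPM against 5.90 to 16.01 in the others and CD68 was 68.8 CPM against 7.13 to 19.6. The same library had 35587 CPM of summed fibroblast and stroma markers against 1022 to 4499 CPM in the others. Its bone and cartilage markers summed to 7894 CPM against 293 to 853 CPM. A positive log2 fold change was found for 7 of 8 tested markers of fibroblasts and stroma and 8 of 10 of macrophages and dendritic cells. The same held for 9 of 9 of bone and cartilage, and for 8867 of all 17175 tested genes. In knockout piglets 6, 20 and 21 fibroblast and stroma markers summed to 1022, 1834 and 1249 CPM, against 1454 to 4499 among wild types. Bone and cartilage markers summed to 293, 470 and 491 CPM there, against 358 to 853. Macrophage and dendritic cell markers summed to 67.4, 80.3 and 81.7 CPM, against 56.1 to 132. The signs without knockout piglet 18 were not counted. In these 3 lists 0 were called by edgeR or DESeq2 and 0 had an unadjusted p under 0.05. The part of these cells in S100A4 was not tested.

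**Figure D4:**
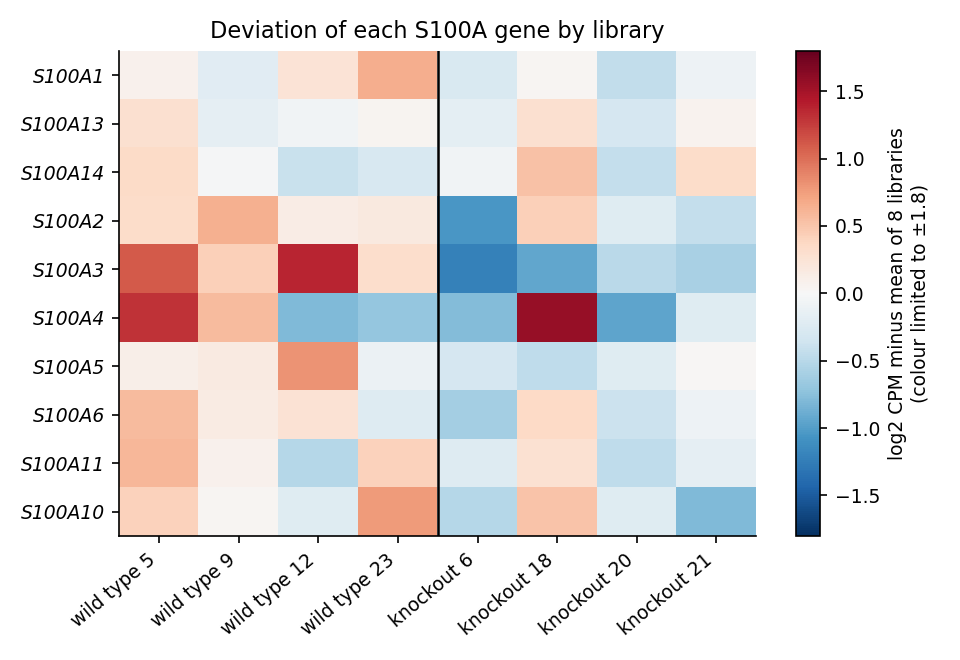
Deviation of each S100A gene from its mean over 8 libraries, in log2 CPM, with 1 column for each piglet and a line between the groups; red is above and blue below the mean. Wild-type piglet 5 and knockout piglet 18 are each among the 2 highest libraries in 6 of the 10 genes, and knockout piglets 6 and 20 are among the 2 lowest in 7 and 6.

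Across the 45 pairs of genes, r was above 0 in 38, with a median of 0.48. For the deviations from the group means it was above 0 in 30. Of the 7 negative pairs, S100A5 was in those with S100A14, S100A11, S100A4, S100A10 and S100A13, the lowest being with S100A14 (r = -0.38, rho = -0.19). Without knockout piglets 18 and 20 that r was -0.38. S100A14 and S100A4 had an r of 0.83 and a rho of 0.95, and r was 0.69 without knockout piglets 18 and 20.

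The genes most like each member were sought among 10260 named genes with a mean of at least 10 CPM, and since they are the highest of so many, no p is given. The pattern of S100A5 over the 8 libraries was most like that of DUSP1, an immediate early phosphatase (r = 0.93, rho = 0.83), and ABCB9, a lysosomal transporter (r = 0.90, rho = 0.67). S100A11 was most like ID3, an inhibitor of differentiation factors (r = 0.98, rho = 0.98). S100A10 was most like SMARCAD1, a chromatin remodeller (r = 0.96, rho = 0.90), and S100A2 like FASTK (r = 0.96, rho = 0.88) and CDC7, a replication kinase (r = 0.96, rho = 0.90). S100A6 was most like BCAT2, a mitochondrial aminotransferase (r = 0.91, rho = 0.98), S100A1 like TM2D1 (r = 0.93, rho = 0.95), S100A13 like PTGR2, a prostaglandin reductase (r = 0.94, rho = 0.98), and S100A14 like KLF2, a transcription factor (r = 0.93, rho = 0.88). S100A3 and S100A4 were below 10 CPM and were not searched.

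Other S100 genes and the fused-type genes of the cornified barrier were mostly low. Of 16 listed, 12 were in the table and 8 passed the filter, of which 7 had a negative log2 fold change (median -0.29). None was called by edgeR or DESeq2, and 0 had an unadjusted p under 0.05. S100A16, named by position between S100A14 and S100A2, ranged from 16.4 to 34.2 CPM among wild types and from 14.9 to 27.9 CPM among knockouts (log2 fold change -0.36 ± 0.25, edgeR adjusted p = 0.568). The antimicrobial neutrophil genes S100A8 (0.25 to 3.56 CPM), S100A9, named by position (1.62 to 9.14), and S100A12 (2.69 to 20.9) were present at low levels. S100A9 and S100A12 were highest in knockout piglet 18 and next in wild-type piglet 5, and their log2 fold changes were -0.10 ± 0.53 and -0.27 ± 0.64 (edgeR adjusted p = 0.951 and 0.877). S100A7, named by position, and S100Z were at 0.82 to 2.51 and 1.14 to 3.19 CPM, and S100G was under 1 CPM in every library. S100B and S100P were listed too, but no identifier of the table carried either name, so they could not be analysed.

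**Figure D5:**
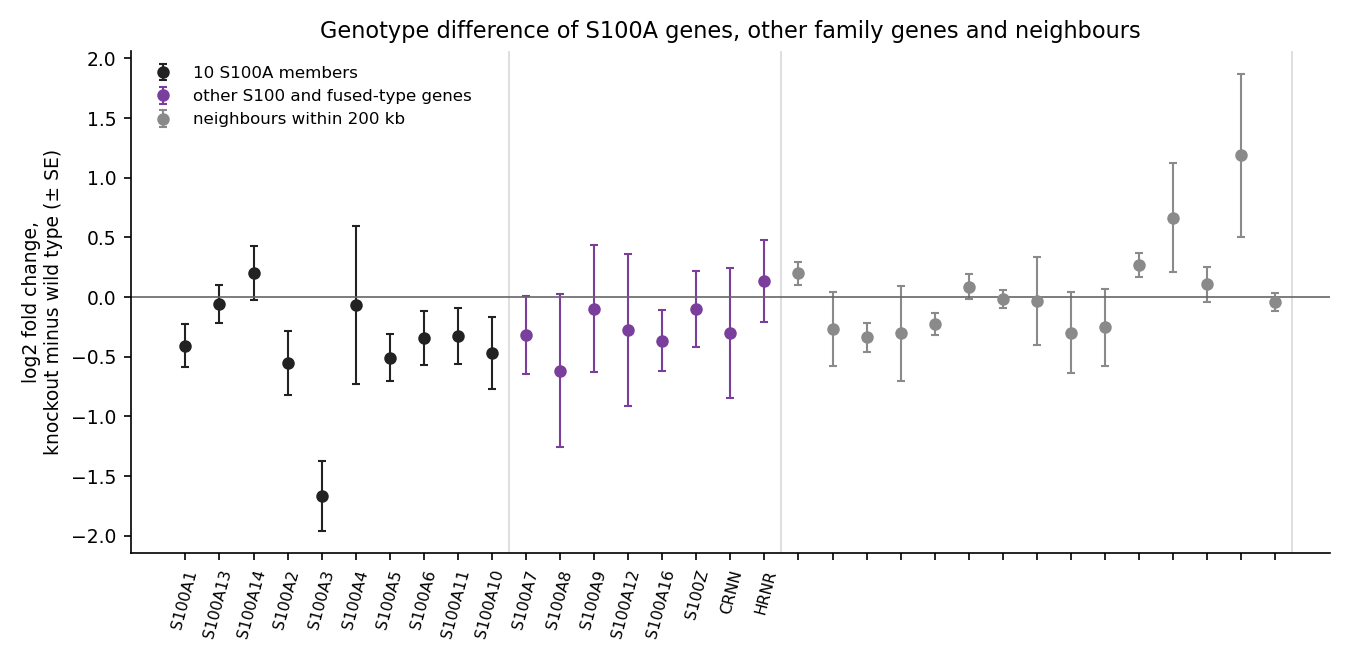
Log2 fold change of knockout against wild type from edgeR, with SE, for the 10 S100A genes in chromosomal order (black), the tested other S100 and fused-type genes (purple) and the tested neighbours within 200 kb (grey, without names). S100A3 at -1.67 lies apart, and neighbours lie on both sides of 0.

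Genes beside the S100A loci were on both sides of 0. Of 24 neighbours within 200 kb other than S100 genes, 15 were tested, 6 with a positive and 9 with a negative log2 fold change (median -0.04). None was called by edgeR or DESeq2, with 1 higher and 2 lower at an unadjusted p under 0.05. INTS3, an Integrator complex subunit, had -0.34 ± 0.12 (edgeR adjusted p = 0.409), and ILF2, a double-stranded RNA binding factor, had -0.23 ± 0.09 (edgeR adjusted p = 0.424). CHTOP, whose span overlaps that of S100A1, had -0.01 ± 0.07 (edgeR adjusted p = 0.949).

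Genes of proteins that S100 proteins bind were on both sides of 0. Of 34 listed, 27 were tested, 14 positive and 13 negative (median 0.03). None was called by edgeR, with 1 higher and 1 lower at an unadjusted p under 0.05, and DESeq2 called CACYBP lower. CACYBP, the calcyclin-binding protein named for S100A6, was 79.6, 94.4, 68.2 and 96.2 CPM in wild-type piglets 5, 9, 12 and 23, and 57.5, 63.2, 54.3 and 59.7 CPM in knockout piglets 6, 18, 20 and 21. The groups did not overlap, which held in this direction for 3.36% of all tested genes. The log2 fold change of CACYBP was -0.53 ± 0.12 (edgeR adjusted p = 0.326). ANXA2, the partner of S100A10, had -0.21 ± 0.29 (edgeR adjusted p = 0.780) and ANXA1, the partner of S100A11, had -0.29 ± 0.29 (edgeR adjusted p = 0.697). FGF1, exported with S100A13, had 0.75 ± 0.34 (edgeR adjusted p = 0.449).

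Among other EF-hand calcium sensors and buffers, 32 of 38 listed genes were tested, 13 positive and 19 negative (median -0.04). None was called by edgeR, with 1 higher and 3 lower at an unadjusted p under 0.05, and DESeq2 called PVALB lower. PVALB, the calcium buffer parvalbumin, was 5.24, 11.6, 9.45 and 14.3 CPM in wild-type piglets 5, 9, 12 and 23, and 5.76, 3.93, 5.17 and 4.73 CPM in knockout piglets 6, 18, 20 and 21. Wild-type piglet 5 lay among the knockout values (log2 fold change -1.05 ± 0.29, edgeR adjusted p = 0.353). CAPN1, a calcium-activated protease, had 156 to 194 CPM in wild types and 100.4 to 146 CPM in knockouts, with no overlap (-0.52 ± 0.15, edgeR adjusted p = 0.356). Groups without overlap and with the knockout lower were found for 2 of these 32 genes and for 3.36% of all tested genes. KCNIP2, a calcium-sensing potassium channel subunit, was 19.1 to 21.6 and 15.9 to 19.0 CPM (-0.25 ± 0.10, edgeR adjusted p = 0.418).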

How the data were processed

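The values are whole-number read counts per gene that the authors deposited without normalization, in a table with the column layout of featureCounts per the file headers. Per the submitters' processing notes, which give no role or order, the tools were DESeq2, FastQC, STAR 2.4.0, featureCounts, Subread 1.5.0-p3 and HTSeq. The genome build and the strand setting are not given in the sources used here. The deposited Length column, another value per the file headers, gave exonic lengths. Only the 25880 pig identifiers entered library sizes and tests, and 5988 others, with at most 0.00182% of reads, were left out. Symbols came from a gene name table (14856) or by position (1642), where at least 50% of both spans overlapped in RefSeq Sscrofa11.1.

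Counts were fitted with edgeR 4.0.16 in R 4.3.3 (quasi-likelihood test, TMM, default filter, genotype as factor, 17175 genes), with Benjamini-Hochberg adjustment at 0.05. Log2 CPM used a prior count of 2. DESeq2 1.42.0 and limma 3.58.1 were alternatives. The fit was tested on simulated data. The S100A genes, the lists and the rule for named genes (CFTR, the 10 members, other S100 genes, up to 4 genes of smallest p in each list, up to 2 of highest mean CPM in each marker list, and up to 3 most alike genes) were chosen with earlier results of these data known. CHTOP, ANXA1, ANXA2, KRT1 and OAZ3 fall outside this rule and were named after their values were seen. Some genes that the rule selects are not reported here. With 4 libraries a group, precision is limited by the spread between piglets, not by depth.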

Additional observations from a re-analysis of the deposited data

Results flagged for a closer look

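Of 40 groups of 4 libraries examined, 2 held a library far from the other 3, where chance flags about 1 in 20. S100A4 was 15.4 CPM in knockout piglet 18, against 2.67 to 4.42 CPM in the other knockout piglets. CFTR was 56.5 CPM in wild-type piglet 5, against 34.0 to 36.6 CPM in the other wild-type piglets.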

How the results depend on the processing

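edgeR called 1 gene of all tested, CFTR, and this count was 219 with DESeq2 (84 higher and 135 lower), 11 with limma, 2 without wild-type piglet 5 and knockout piglet 18, and 0 among the 6 libraries free of Y-linked reads, a setting added after seeing the data. With 1 library left out it ranged from 0 to 16, the highest without wild-type piglet 12. DESeq2 called 1 S100A gene (S100A3), 1 binding partner (CACYBP) and 1 EF-hand gene (PVALB) where edgeR called 0. Among neighbours the count was 0 to 1 with 1 library left out, OAZ3 being called higher without wild-type piglet 9. S100A5 made up 41.6% of the summed level per kb, and 42.3% without wild-type piglet 5. The 38 pairs of genes with r above 0 were 33 without that piglet. The number of negative S100A genes was 7 to 9 in the other fits, and the cause was not tested. No paired analysis was possible because the labels give no litter or other link between piglets of the 2 groups.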
